A study of Mus musculus with 148 samples.

Results

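DNA modification was compared between the 2 ends of the adult mouse small intestine, segment 1 in the proximal duodenum and segment 9 in the distal ileum. The 16 samples, 8 of each segment, were all those that the labels give as postnatal day 60 (P60) and segment 1 or segment 9, out of 148 samples in the series. The mice were C57BL/6NCrl adults on standard food and water, with no milk and no engineered allele in either group, and the labels give no difference between the groups besides the position of the tissue. Enterocytes, the absorptive cells that cover the villi, were released from each segment by chelation, a preparation that also carries other cells of the mucosa. Bisulfite-converted DNA was enriched with padlock probes to both strands before sequencing, and the reads were counted as modified or unmodified at each cytosine. The probes covered the *Lct*–*Mcm6* locus of chromosome 1 and 22 further autosomal targets, most of them at imprinted genes. The modification level is the percent of modified reads at a cytosine of a given strand, among cytosines with more than 30 reads.

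Bisulfite sequencing reads methylated and hydroxymethylated cytosines alike, and in mammals both occur mainly where a C is followed by a G (CpG). *Lct* encodes lactase, the brush border enzyme that splits the sugar of milk, and its transcription is known to vary along the length of the intestine. The neighbouring *Mcm6* encodes a subunit of the replicative helicase, and its introns hold an enhancer of *Lct* that carries the human variants of lactase persistence. Imprinted genes are expressed from the maternal or the paternal copy alone, and at their control regions the copy of a given parent is methylated in nearly all tissues.

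The stretches below hold the CpGs with the clearest difference of 11 regions, so that the density of CpGs around them can be read. Each runs from 5′ to 3′ on the strand of the gene in GRCm38 where a gene overlaps it, and capitals mark every CpG. The *Mcm6* exon 13 stretch crosses from the exon into intron 13, and all of its 7 CpGs, on both strands, passed the test described below. The stretch of the *Lct* exon 9 boundary holds 2 CpGs, 4 when counted by strand, that all passed, while that of *Lct* intron 2 and that of *Lct* exon 1 hold a solitary CpG each.
Mcm6 exon 13, chr1:128338079-128338209, minus strand: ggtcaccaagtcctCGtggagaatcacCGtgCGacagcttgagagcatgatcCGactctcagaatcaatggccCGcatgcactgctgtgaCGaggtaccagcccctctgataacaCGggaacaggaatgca
Lct exon 9, chr1:128298425-128298496, minus strand: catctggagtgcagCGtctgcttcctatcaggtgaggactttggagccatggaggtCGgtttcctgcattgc
Lct intron 2, chr1:128314505-128314534, minus strand: aatgcagttgtcagCGtacacactacagaa
Lct exon 1, chr1:128328045-128328074, minus strand: acttcagcagtcttCGggccagccaggtta
Mcm6 intron 3, chr1:128353221-128353316, minus strand: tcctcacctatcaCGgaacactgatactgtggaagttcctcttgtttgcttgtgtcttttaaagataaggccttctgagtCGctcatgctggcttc
Ubxn4-Lct intergenic, chr1:128284674-128284702, minus strand: tgcatgatgctagaCGaagcatttcCGaa
Plagl1 target, chr10:13089877-13089967, plus strand: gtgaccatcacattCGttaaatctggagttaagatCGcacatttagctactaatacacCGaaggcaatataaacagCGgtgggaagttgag
Snrpn target, chr7:60002873-60002952, minus strand: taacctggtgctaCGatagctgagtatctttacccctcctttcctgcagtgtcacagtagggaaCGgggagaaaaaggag
Zdbf2 target, chr1:63275057-63275085, plus strand: agattaagtgctcaCGgttagctattatt
Dlk1-Meg3 intergenic target, chr12:109526267-109526355, plus strand: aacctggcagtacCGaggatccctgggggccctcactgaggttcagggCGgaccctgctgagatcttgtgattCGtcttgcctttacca
Peg13 target, chr15:72802203-72802304, minus strand: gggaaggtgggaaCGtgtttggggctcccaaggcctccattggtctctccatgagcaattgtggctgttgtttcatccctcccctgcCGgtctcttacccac

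Depth was high in every sample. Total cytosine counts per sample ran from 35368077 to 47609492 in segment 1 and from 37633294 to 101337494 in segment 9, and the median number of reads per CpG of the locus lay between 1052 and 1552 and between 1204 and 3572. The samples came from 4 sequencing lanes, 3 of which held both segments. The labels do not tie samples to mice, a file name of segment 1 marks a repeat, and the methods give fewer mice per segment than there are samples here. Some samples may therefore share a mouse, and the p-values measure only the spread between these samples.

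The *Lct*–*Mcm6* locus carried more CpG modification in the distal ileum than in the proximal duodenum. Averaged over the 633 CpGs, counted by strand, that were covered in all 16 samples, the level was 76.4% ± 0.63 in the duodenal and 79.7% ± 0.37 in the ileal samples (SD, n = 8 per group). The segment 1 samples ran from 75.8% to 77.3% with a median of 76.3%, and the segment 9 samples from 79.3% to 80.2% with a median of 79.6%. The groups did not overlap, and the exact permutation test over all 12870 assignments of 8 samples to segment 9 gave p = 0.000155, the smallest p it can give. Cytosines outside CpGs (CpHs), which also carry the background of incomplete conversion, stood at 0.374% and 0.376%, a difference smaller than the spread between samples (exact permutation test, p = 0.882). The rise was not limited to a few CpGs. Of the 665 CpGs of the locus tested by strand, 528 had the higher mean in segment 9 (79.4%), with a median difference of 1.10 percentage points. With the CpGs that passed on their own left out, the means were still 78.2% and 79.7%.

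Single CpGs were tested with a quasi-binomial model of the modified and unmodified counts, adjusted by Bonferroni over the 22795 cytosines tested, at 0.01. At the locus 45 of 665 CpGs were higher in segment 9 and 2 were lower, which is 6.77% and 0.301% of the CpGs tested there. The groups did not overlap at 44 of the 45 and at both of the 2. Over the whole locus, 96 CpGs (14.4%) had all segment 9 samples above all segment 1 samples, and 4 (0.602%) the reverse. The rises ranged from 2.61 to 60.2 points with a median of 23.5. At the locus, levels that began in the middle range moved most often. Among CpGs at 20 to 80% in segment 1, 37 of 126 (29.4%) passed, against 7 of 472 (1.48%) at 80 to 100% and 3 of 67 (4.48%) below 20%, a description, since the level in segment 1 is part of the comparison. Of the 37, 16 were neighbouring CpGs in and around *Mcm6* exon 13. At the other targets the shares were 4.8% at 20 to 80%, 3.7% at 80 to 100% and 6.41% below 20%. Of the 21250 CpHs tested, 1 passed (0.00471%), and 1480 had an unadjusted p under 0.05, a share larger than 0.05 whose cause was not tested.

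**Figure D1:**
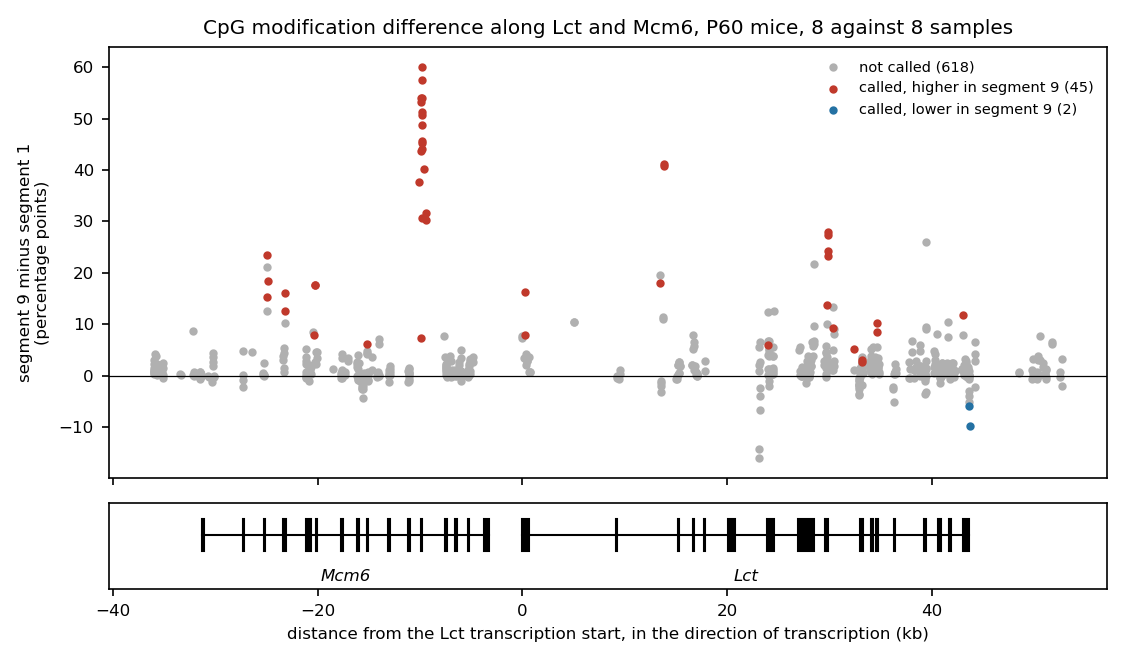
Difference in CpG modification between the intestinal ends along *Lct* and *Mcm6* in P60 mice. Each point is a CpG of a strand, placed by its distance from the *Lct* transcription start in kb and by the mean of 8 segment 9 samples minus the mean of 8 segment 1 samples in percentage points, with gene models beneath. The tallest group of points, up to 60.2 points, lies at exon 13 of *Mcm6*.

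*Mcm6* exon 13 and its flanks differed more than any other region of the locus. All 18 CpGs tested by strand between chr1:128337771-128338385, in exon 13, intron 13 and intron 12, were higher in segment 9, and their mean was 36.3% ± 5.6 in the duodenum and 80% ± 2.3 in the ileum (SD, n = 8 per group). The CpG at 128338157 on the minus strand showed the largest rise. Its segment 1 samples ran from 25.3% to 40.7% with a median of 27.3%, and its segment 9 samples from 84% to 91.5% with a median of 89.8%. Every ileal sample thus lay far above every duodenal sample (adjusted p = 2.35e-09). The 4 next largest rises of the locus were in the same exon, at 128338136, 128338119 and 128338182 on the minus strand and 128338194 on the plus strand, with 57.6, 54.1, 53.3 and 54.1 points. In intron 13, the CpG at 128338094 on the minus strand rose from 12.8% to 63.6% (adjusted p = 3.41e-07). In intron 12, the CpG at 128338385 on the minus strand rose from 42.4% to 80% (adjusted p = 7.92e-06). The span was drawn around the CpGs that passed, so its limits are a description. The 2 nearest tested CpGs of intron 13 outside it, at 128335929 and 128335981, averaged 85.9% in segment 1 and 91.5% in segment 9, and exon 12 of *Mcm6*, on the other side, stood at 85.1% and 85.3% (exact permutation test, adjusted p = 0.412).

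In exon 13 of *Mcm6*, a CpG differed between its strands. At 128338194 the plus strand rose from 29.5% to 83.7%, whereas the C of the opposite strand, at 128338195, rose only from 2.49% to 9.90%. The gap between the strand differences was 46.7 points, the largest among the 22 CpGs of the locus that were tested on both strands and passed on at least 1. Their median gap was 3.25 points. In all 22 both strands moved the same way, and 13 passed on both. In the rest of the exon, the minus strand began lower than the plus strand, as at 128338156, where the plus strand stood at 39.7% and the minus strand at 29.2% in segment 1. In segment 9 the same strands stood at 91.0% and 89.4%.

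Within *Lct*, 18 CpGs rose, in 2 groups and at scattered sites. The group at the boundary of exon 9 and intron 9 (chr1:128297977-128298603) held 6 CpGs that passed among 11 tested, with means of 51.9% ± 2.6 and 72.9% ± 2.4 (SD, n = 8 each). Its clearest CpG, at 128298481 on the plus strand in exon 9, lay between 44.4% and 54.8% with a median of 49.7% in segment 1 and between 74.7% and 80.3% with a median of 76.8% in segment 9 (adjusted p = 2.52e-07). Its counterpart on the other side of the splice site, at 128298440 on the minus strand, rose from 32.9% to 57.1% (adjusted p = 0.000338). Exon 9 CpGs farther from that splice site, from 128298627 to 128298708, averaged 89.3% and 92.0% and none passed.

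The second group was in intron 2 of *Lct*, toward the start of the gene. Its 3 CpGs that passed, between chr1:128314519-128314931, had means of 26.3% ± 5.6 and 59.6% ± 4.4 (SD, n = 8 each). The CpG at 128314519 on the plus strand ran from 24.4% to 45.8% with a median of 30.4% in segment 1 and from 60.6% to 79.8% with a median of 74.5% in segment 9 (adjusted p = 0.000201). The minus strand of the same CpG went from 34.7% to 75.5%. The other 7 CpGs of that span were low in both segments or moved less, so that the mean of all 10 went from 20.2% to 33.6%. On either side of the span the level was near 89% in both segments, with 89.3% and 88.9% before it and 88.7% and 89.0% after it.

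Exon 1 of *Lct*, which encodes the start of the lactase precursor, rose as well. The CpG at 128328059 on the plus strand lay between 69.8% and 82.2% with a median of 73.4% in segment 1 and between 89.9% and 93.4% with a median of 91.2% in segment 9 (adjusted p = 0.000272). Its minus strand rose from 82.3% to 90.3%. Single CpGs of later exons rose by less. In exon 7 the CpG at 128304316 on the plus strand went from 79.4% to 85.3%, in exon 10 that at 128295195 on the minus strand from 90.3% to 93.4%, and in exon 12 that at 128293692 on the plus strand from 76.5% to 85%. In exon 17 the CpG at 128285272 on the plus strand went from 72.1% to 83.9%. The adjusted p of these 4 lay between 6.17e-05 and 0.00091.

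In *Mcm6*, besides exon 13 and its flanks, CpGs of introns 3 and 6 and of exons 4 and 10 rose. In intron 3 the 3 CpGs that passed, between chr1:128353177-128353302, had means of 53.8% ± 2.3 and 72.9% ± 1.8 (SD, n = 8 each). That at 128353302 on the plus strand ran from 60.9% to 66.6% with a median of 62% in segment 1 and from 74.9% to 80.3% with a median of 78.4% in segment 9 (adjusted p = 4.84e-07). The CpG at 128353177 of this intron was the only called CpG of the locus whose groups overlapped. In intron 6 the 3 CpGs between chr1:128348621-128348714 went from 62.6% ± 2.2 to 77% ± 1.0, with the lowest p at 128348622 on the minus strand, from 55.9% to 73.4% (adjusted p = 1.64e-06). The CpG of exon 4 at 128351506 on the plus strand rose from 76% to 88.7% (adjusted p = 0.00152), and that of exon 10 at 128343459 on the minus strand from 82.6% to 88.8% (adjusted p = 0.00873).

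Downstream of *Lct*, 2 CpGs between its 3′ end and *Ubxn4* moved against the rest of the locus. At 128284599 on the minus strand the samples ran from 71.3% to 73.9% with a median of 72.1% in segment 1 and from 59.8% to 66.1% with a median of 61.1% in segment 9 (adjusted p = 0.00172). At 128284688 on the minus strand the range was 90.0% to 92.2% with a median of 91.3% in segment 1, and 83.6% to 87.9% with a median of 84.5% in segment 9 (adjusted p = 0.00139). Neither pair of groups overlapped. The remaining 15 CpGs of this interval averaged 85% in both segments. Both falls were lost with sequencing lane as a covariate and with limma, in which no CpG of the locus was lower.

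Averaged by exon, intron and flank, 39 of 59 features were higher in segment 9 (66.1% of those tested) and 2 were lower (3.39%), by the exact permutation test with Benjamini-Hochberg adjustment at 0.05. The median difference over all 59 was 1.46 points. In 22 of the 39 the groups did not overlap, and these 22 shared the adjusted p of 0.000417. The largest differences were at *Mcm6* exon 13, from 36% ± 5.7 to 81.9% ± 1.6, *Mcm6* intron 13, from 50.1% ± 4.6 to 80.1% ± 3.0, and *Mcm6* intron 3, from 51.9% ± 5.6 to 70.1% ± 2.5 (SD, n = 8 each). In *Lct*, intron 2 went from 46% ± 2.7 to 54.4% ± 1.7, exon 9 from 81.9% ± 0.98 to 88.9% ± 0.63, exon 12 from 83.9% ± 1.1 to 89.8% ± 0.69 and exon 1 from 84.5% ± 1.2 to 89.3% ± 0.37. Intron 8 of *Lct*, in which no single CpG passed, went from 72.7% ± 2.9 to 77.5% ± 0.64. *Lct* intron 6 fell, from 60.9% ± 2.2 to 58.3% ± 1.2 (adjusted p = 0.00815), with overlapping groups. The interval between *Ubxn4* and *Lct* fell by 0.903 points (adjusted p = 0.0313), also with overlap. *Mcm6* intron 1, near the promoter and low in both segments, was at 8.88% ± 1.7 and 10.1% ± 0.71, and its difference did not pass (adjusted p = 0.107). The interval between *Mcm6* and *Dars* went from 17.6% ± 0.22 to 18.1% ± 0.20 (adjusted p = 0.000733).

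**Figure D2:**
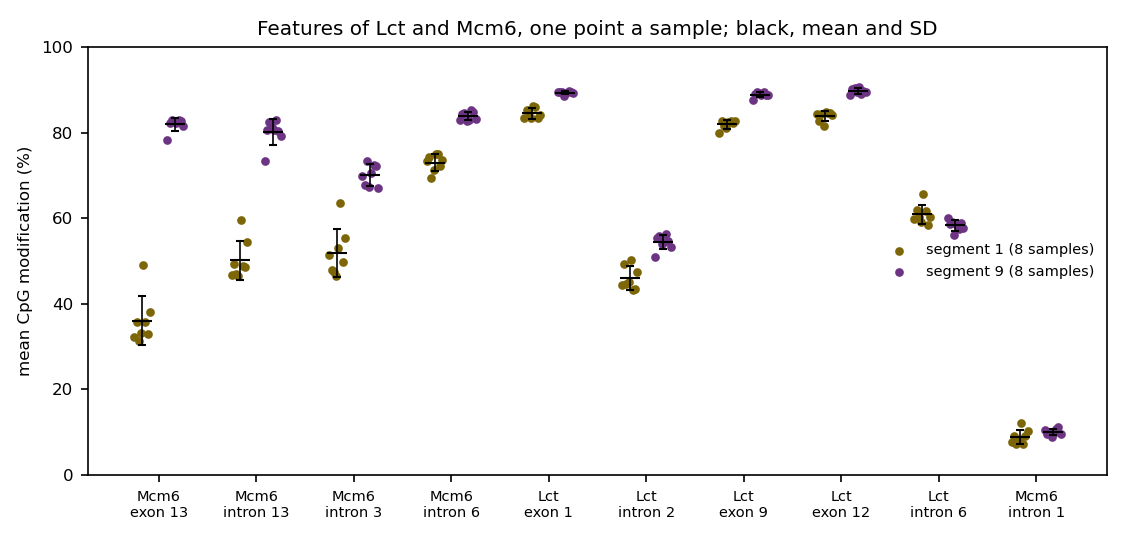
Mean CpG modification in percent of features of *Lct* and *Mcm6*, a point per sample for segment 1 and segment 9 of P60 mice, with bars at the means. The segment 1 samples of *Mcm6* exon 13 lie between 31.3% and 49.1% and the segment 9 samples between 78.3% and 83%, whereas those of *Mcm6* intron 1 overlap near 10%.

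The spread between samples was larger at the proximal end for most CpGs. The SD was larger in segment 1 at 39 of the 45 CpGs of the locus, with a median SD of 3.99 points in segment 1 and 1.81 in segment 9, and at 470 of all 665 tested CpGs (70.7%). These 45 CpGs also stood at a median of 51.1% in segment 1 and 84.4% in segment 9. Depth differed too, with median reads per locus CpG of up to 1552 in segment 1 samples and up to 3572 in segment 9 samples. The parts of level and depth in the spread were not tested. At the 2 falls of the locus the SD was larger in segment 9. Among the CpGs of the other targets it was larger in segment 1 at 19 of 26 that rose and 11 of 16 that fell, beside 63.1% of the 880 tested. At *Mcm6* exon 13, replicate 5 of segment 1, at 49.1%, stood above the other duodenal samples, which ran from 31.3% to 38%. Replicate 1 of segment 9, at 78.3%, stood below the other ileal samples, which ran from 81.5% to 83%. With replicate 5 of segment 1 left out, 83 CpGs of the locus and the other targets passed, and with replicate 1 of segment 9 left out 77 passed, against 89 of 1545 (5.76%) with all samples.

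At the other autosomal targets, differences went in both directions. Of 880 CpGs tested by strand, 26 were higher in segment 9 (2.95%) and 16 lower (1.82%), together 4.77% of those tested, and the groups did not overlap at any of these 42. With limma 9 were higher and 9 lower, and with lane as a covariate 26 of the 42 were called. Over all 880, groups without overlap were found at 53 CpGs (6.02%) that were higher and 31 (3.52%) that were lower. The mean over 802 CpGs covered in all samples was 50.9% ± 0.61 in segment 1 and 51.6% ± 0.56 in segment 9 (exact permutation test, p = 0.0301), and 474 of the 880 had the higher mean in segment 9. Of 20 targets with at least 3 CpGs, 6 were higher (30.0%) and 2 lower (10.0%). The *Inpp5f* and *Rasgrf1* targets had too few CpGs for the test.

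*Plagl1*, which encodes a zinc finger protein expressed from the paternal copy, and *Snrpn*, a small nuclear ribonucleoprotein gene of the Prader-Willi region, had the largest rises of whole targets. *Plagl1* went from 43.3% ± 2.1 to 53.1% ± 1.4 and *Snrpn* from 48.6% ± 2.2 to 54.3% ± 2.4 (SD, n = 8 each, adjusted p = 0.000622 for both). The segment 1 samples of *Plagl1* lay between 40.5% and 46.8% and the segment 9 samples between 50.6% and 54.6%, without overlap. In *Plagl1* the CpG at 13089953 on the plus strand of chromosome 10 ran from 53.6% to 61% with a median of 58.2% and from 74.3% to 78.4% with a median of 76.5% (adjusted p = 4.48e-07). In *Snrpn* the CpG at 60002887 on the plus strand of chromosome 7 ran from 47.1% to 57.5% with a median of 54% and from 72.2% to 81.6% with a median of 77.5% (adjusted p = 7.02e-06).

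In both genes the CpGs that passed lay at an edge of the target. The 12 tested CpGs of *Plagl1* between chr10:13089855-13090269 went from 43.7% to 61%, whereas the 6 beyond, up to 13091601, stood at 43.6% and 43.3% with differences between -0.655 and 0.459 points. The 10 CpGs of *Snrpn* between chr7:60002806-60003295 went from 58.9% to 75.3%, and the 25 beyond from 44.4% to 45.9%. Since the spans were drawn around the CpGs that passed, these values are a description.

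*Zdbf2*, a paternally expressed gene of chromosome 1, rose over a wide target. Its mean went from 37.5% ± 1.2 to 40.5% ± 0.37 (adjusted p = 0.000622), and its 7 called CpGs, spread from 63255153 to 63279865 without forming a cluster, from 22.4% to 37.3%. The CpG at 63275071 on the plus strand, in an intron, ran from 5.52% to 15.2% with a median of 7.67% in segment 1 and from 26.3% to 34.3% with a median of 32.9% in segment 9 (adjusted p = 2.31e-05). The target of *Peg3* and *Usp29* rose from 48.6% ± 0.93 to 50.4% ± 1.0 (adjusted p = 0.00104), with overlapping groups and 3 called CpGs. That at 6732763 on the minus strand of chromosome 7 lay in an exon of *Usp29* outside the coding sequence. Read at a median depth of 12169, it ran from 59.3% to 62.6% with a median of 61.4% in segment 1. In segment 9 it ran from 73.5% to 75.9% with a median of 74.0%, and it had the lowest p of all cytosines (adjusted p = 4.37e-10). The growth factor receptor-bound protein gene *Grb10* went from 60.4% ± 0.85 to 62.4% ± 1.4 (adjusted p = 0.0111), with overlapping groups and no single CpG past the test. *Impact* went from 50.4% ± 1.6 to 52.9% ± 2.0 (adjusted p = 0.0486) with overlapping groups, and within lane 7 its difference was -0.824 points. At *Mest*, whose mean did not pass (adjusted p = 0.527), 2 CpGs of an intron rose, that at 30739924 on the plus strand of chromosome 6 from 83.6% to 91.8% (adjusted p = 0.000254).

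*Peg13*, a noncoding RNA transcribed within an intron of *Trappc9*, had the largest fall. Its target went from 66.9% ± 0.91 to 62.6% ± 1.1 (adjusted p = 0.000622), with segment 1 samples between 65.2% and 68.4% and segment 9 samples between 61.4% and 64.7%. The fall lay mainly beyond the 3′ end of the transcript, in *Trappc9* intron sequence. There, the 8 CpGs that passed among 11 tested between chr15:72801572-72802307 had means of 46% ± 2.3 and 20.6% ± 2.5 (SD, n = 8 each). The mean of all 11 went from 40.8% to 18.1%. At 72802217 on the minus strand the samples ran from 52.1% to 66.3% with a median of 57.7% in segment 1 and from 16.8% to 26.1% with a median of 20.7% in segment 9 (adjusted p = 2.52e-07). The single CpH that passed, at 72802307 on the minus strand, was in the same span and fell from 3.77% to 0.869% (adjusted p = 0.00371). The 72 CpGs of the target that did not pass averaged 69.3% and 67.6%.

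The target between *Dlk1* and *Meg3*, 10151 bp upstream of the noncoding RNA gene *Meg3* and at the imprinting control region of that domain, fell from 79.5% ± 0.57 to 77.5% ± 0.81 (SD, n = 8 each, adjusted p = 0.000622). Its change turned within a short distance. At 109526281 on the minus strand of chromosome 12 the level rose, from a range of 23.5% to 29.8% to a range of 32.5% to 40.8% (adjusted p = 0.00501). At 109526341, also on the minus strand, it fell, from a range of 75% to 79.9% with a median of 78% to a range of 56.7% to 63% with a median of 60.7% (adjusted p = 3.28e-06). Both strands of the 2 CpGs from 109526315 to 109526341 fell, by 14.3 to 20.1 points. The 5 tested CpGs before 109526281 did not pass the test, with differences from 0.117 to 20.3 points. The 64 CpGs after the cluster averaged 85% and 82.4%.

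The other 12 targets did not pass, with adjusted p of 0.113 or more. They were *Airn*, *Slc38a4*, *Mcts2*, *Blcap*, *Nespas*, *Gnas*, *Peg10*, *Mest*, *Nap1l5*, *Zrsr1*, *H19* and *Kcnq1ot1*, with differences from -2.53 points at *Airn* to 0.804 at *Kcnq1ot1*. *H19*, the maternally expressed noncoding RNA gene, stood at 38.6% ± 1.2 and 38% ± 1.4 over 55 CpGs. *Airn*, the antisense RNA gene of *Igf2r*, stood at 62.5% ± 1.6 and 60.0% ± 3.0 (adjusted p = 0.113).

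**Figure D3:**
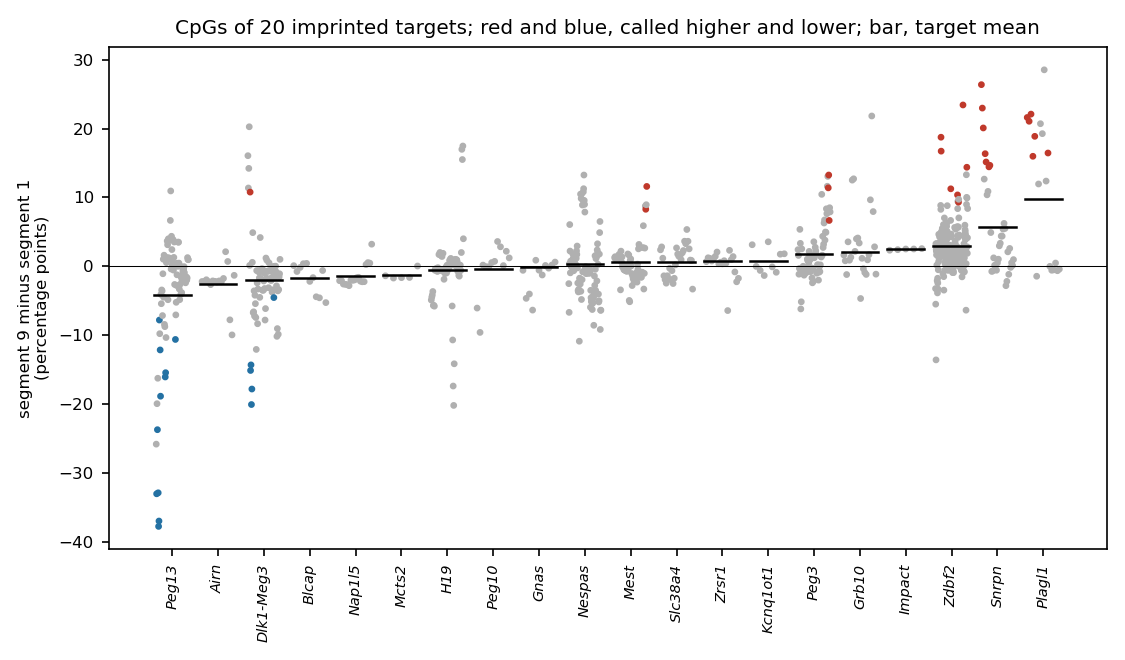
Difference in CpG modification, segment 9 minus segment 1 in percentage points, for every tested CpG of the autosomal targets outside the *Lct*–*Mcm6* locus, by target, with CpGs past the test marked. Rises gather at *Plagl1*, *Snrpn* and *Zdbf2*, and the deepest falls, to -37.8 points, at *Peg13*.

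The letters GATAA, or TTATC on the other strand, which GATA factors of the gut epithelium can bind, were counted in windows reaching 100 bp to either side of each CpG. They occurred around 22.9% of the 665 tested CpGs of the locus and around 60.0% of the 45 that rose. In the *Mcm6* exon 13 group 16 of 18 windows, which overlap, held them, whereas among the 18 CpGs of *Lct* that rose 4 did (22.2%), and the printed stretch of that exon carries the letters between its last 2 CpGs as gataa. At the other targets the share was 21.1% of 880 tested CpGs, 73.1% of the 26 that rose and 0 of the 16 that fell. Windows of neighbouring CpGs overlap. Joined into separate stretches, the letters were in 8 of 16 stretches of rises at the locus. At the other targets they were in 10 of 14 stretches of rises and 0 of 7 of falls. Stretches of all tested CpGs were not counted. The median GC content of the windows was 51.7% for rises and 49.8% for all tested CpGs at the locus. At the other targets it was 44.8% for rises, 53.7% for falls and 50.2% for all tested CpGs. No test was made of these shares and counts, and the part of base composition in them was not tested.

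The segments between the ends placed these levels along the intestine, in 55 further P60 samples (8 a segment, 7 in segment 6). The *Mcm6* exon 13 group stood at 36.3%, 34.9%, 33.9%, 38.2% and 42% in segments 1 to 5, and then at 53.3%, 63.3%, 73.3% and 80% in segments 6 to 9. Its level in segment 5 had covered 12.9% of the difference between the ends. The groups of *Lct* intron 2, *Mcm6* intron 3 and *Mcm6* intron 6 likewise stood below their segment 1 level in segment 3, at 20.5%, 51.2% and 60.9%. The called CpGs of *Lct* exon 1 dipped deepest, from 78.8% ± 3.4 in segment 1 to 68.2% ± 1.8 in segment 3 (SD, n = 8 each), before 90.9% in segment 9. At *Lct* exon 1, as at the 4 groups named before it, the difference between the ends was thus smaller than that between segments 3 and 9.

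Other regions had other profiles. The 2 called CpGs of *Mcm6* exon 4 stood at 72.3% in segment 1, 80.8% in segment 3 and 86.7% in segment 9, and had covered 58.9% of the difference by segment 3. The *Peg13* group stood at 46%, 39.5%, 36%, 31.7% and 30.8% in segments 1 to 5 and reached 20.6% in segment 9. The *Dlk1*–*Meg3* group fell from 65.9% to 52.3% by segment 5 and stood at 54.5% in segment 9, so that it had covered 119.6% of the difference by mid-gut. The *Plagl1* group held at 44.5%, 44.8% and 44.8% in segments 1 to 3 and reached 61.7% in segment 7 and 63.9% in segment 9. Among the 10 groups of called cytosines, only those of *Peg13* and *Dlk1*–*Meg3* had covered at least 50% of the difference by segment 5. No test was made of these profiles.

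**Figure D4:**
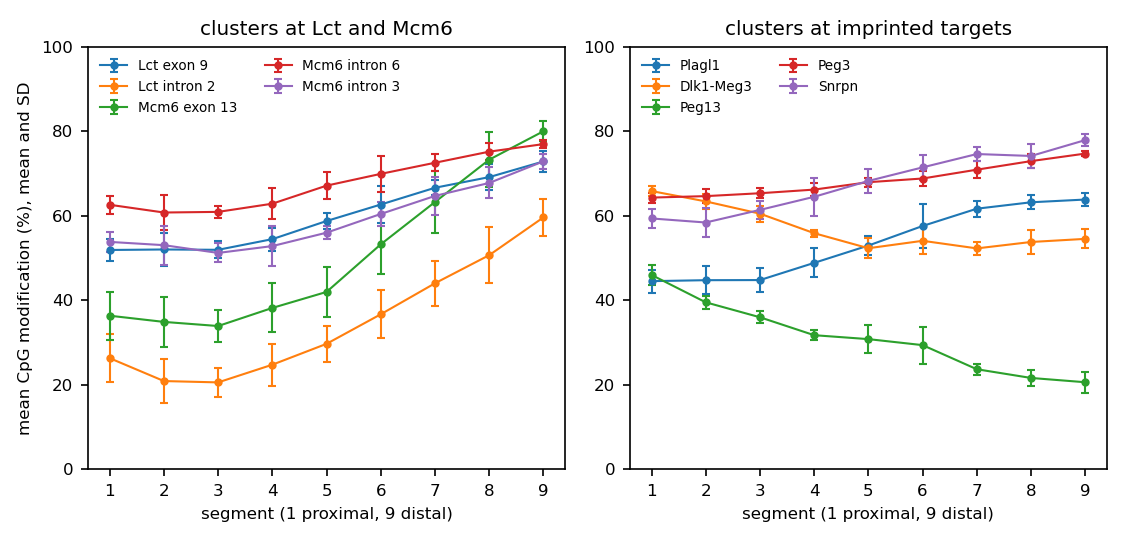
Mean CpG modification in percent, with SD, of groups of called CpGs in segments 1 (proximal) to 9 (distal) of P60 mice, with 8 samples a segment and 7 in segment 6, for groups of the *Lct*–*Mcm6* locus and of other targets. The *Mcm6* exon 13 group stays below 43% up to segment 5 and reaches 80% in segment 9, whereas *Peg13* falls from segment 1 onward.

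Older mice, at postnatal day 90 (P90), gave an independent set of samples of segment 1 and of segment 8, the most distal segment sampled at that age. From postnatal day 30 they had drunk milk in place of water, either lactose-free (lac-, 6 samples of segment 1 and 7 of segment 8) or with lactose and added sucrose (LAC+, 7 and 7). Segments of these mice were sequenced in different lanes, so segment and lane cannot be told apart there. All 47 called CpGs of the locus moved the same way as at P60 in both diets, where 79.5% (lac-) and 80.3% (LAC+) of all CpGs of the locus did so. Of the 42 called CpGs of the other targets, 41 did so in lac- and 42 in LAC+ mice, against 63.8% and 66.7% of all CpGs of those targets. The exception was the rise at 109526281 of the *Dlk1*–*Meg3* target, at 35.2% and 35.0% in lac- mice.

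The sizes were smaller in the P90 samples, with a median of 0.687 times the P60 difference at the locus in lac- mice and 0.595 times in LAC+ mice. By the same test and threshold, 2 of the 47 locus CpGs passed in lac- mice, where 0.302% of the locus CpGs were called higher, and 13 in LAC+ mice, where 2.39% were. Of the 42 others 9 passed in lac- mice, with 0.344% of CpGs called higher and 1.26% lower, and 11 in LAC+ mice, with 0.904% and 0.565%. With no adjustment, 46 (lac-) and 47 (LAC+) of the 47 had p under 0.05, beside 47.7% and 46.2% of all CpGs of the locus, and 39 and 40 of the 42, beside 27.8% and 24.5% of all CpGs of the other targets.

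In the P90 mice the same groups of CpGs gave the following means. *Peg13* went from 46.2% ± 2.0 to 22.9% ± 2.4 in lac- mice (n = 6 and 7) and from 45.9% ± 0.88 to 30.0% ± 3.6 in LAC+ mice (SD, n = 7 each). In P60 mice segment 8 of this group stood at 21.6% ± 1.9. The *Mcm6* exon 13 group went from 44.9% ± 6.0 to 73.2% ± 5.7 in lac- and from 50.6% ± 3.2 to 73.9% ± 5.7 in LAC+ mice, beside 73.3% ± 6.4 in segment 8 at P60. The *Lct* intron 2 group went from 31.5% ± 7.1 to 49.3% ± 5.7 and from 38.1% ± 3.6 to 47.7% ± 7.4. Age, diet and position of the distal sample differ between the P60 and P90 sets, and no test between them was made.

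Of the 39 features that rose at P60, 28 passed as higher in lac- mice and 35 in LAC+ mice, where 54.2% and 71.2% of all 59 features passed as higher and 0.0% as lower. Neither feature that fell at P60 passed. *Lct* intron 2 was among those that rose at P60 and did not pass, at 49.4% and 50.9% in lac- mice (adjusted p = 0.546) and 53.2% and 52.8% in LAC+ mice (adjusted p = 0.812). Of the 6 targets that rose at P60, 4 passed in lac- mice and 2 in LAC+ mice, where 20% and 10.0% of the 20 targets passed as higher and 5.0% and 0.0% as lower. Among these 6, the mean was lower in segment 8 than in segment 1 at 1 in lac- mice and at 3 in LAC+ mice. The *Peg3* target had differences of -0.799 and -0.278 points in lac- and LAC+ mice (adjusted p = 0.808 and 0.861).

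*Lct* exon 1 passed in both diets, from 83.1% ± 0.93 to 88.3% ± 0.92 in lac- mice (exact permutation test, adjusted p = 0.0043) and from 83% ± 0.66 to 86.6% ± 0.50 in LAC+ mice (adjusted p = 0.00143). *Zdbf2* also passed in both, from 38.5% to 40.6% and from 38.1% to 40.2% (adjusted p = 0.021 and 0.00583). *Snrpn* passed in lac- mice, from 50.5% to 54.2% (adjusted p = 0.021), and went from 52% to 54.3% in LAC+ mice (adjusted p = 0.0583). The *Peg13* target as a whole passed in lac- mice, from 64.7% to 63%, and stood at 63.3% and 62.9% in LAC+ mice (adjusted p = 0.861).

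**Figure D5:**
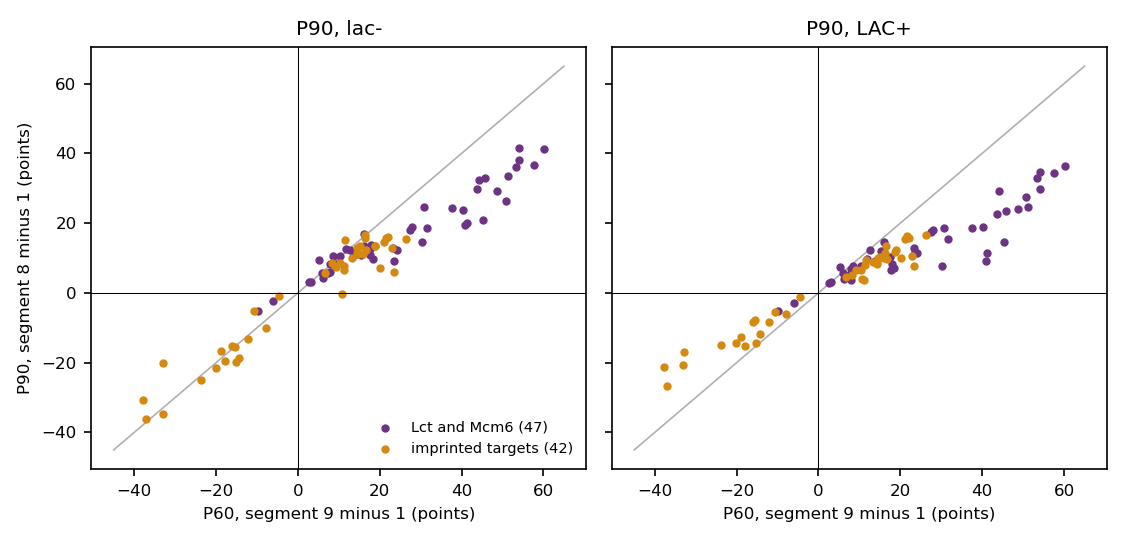
Difference between distal and proximal segments at the 89 CpGs called at P60, with the P60 difference (segment 9 minus 1) on the horizontal and the P90 difference (segment 8 minus 1) on the vertical axis, both in percentage points, for lac- and LAC+ mice. All but 1 point in the lac- panel, and all points in the LAC+ panel, have the same sign on both axes.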

How the data were processed

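DNA modification was measured by bisulfite padlock sequencing of villi enterocytes from P60 mice. Per the labels and the study's methods, the authors used 314 probes for non-repetitive sequence of both strands (GRCm38/mm10). Trimmomatic 0.32 and Bismark are named in the submitters' processing notes. The deposited values are raw read counts, modified and unmodified, for each cytosine and strand. The probes carry degenerate bases, but whether reads were collapsed by them is not given in the sources used here, so reads may include PCR copies.

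Groups followed the source names. A cytosine entered the test where more than 30 reads covered it in at least 3 samples of each segment. Each was fitted with a quasi-binomial model (F test, dispersion per cytosine), with Bonferroni adjustment over all CpGs and CpHs at 0.01. Clusters were 3 or more called cytosines, each within 500 bp of the next, and targets were runs of CpGs less than 20 kb apart. Feature and target means used CpGs covered in all 16 samples, at least 3, in a two-sided exact permutation test with Benjamini-Hochberg adjustment at 0.05 over 59 features and, separately, 20 targets. Named CpGs were those with the lowest p of each feature or target with a called CpG and, at the locus, the 5 largest rises and falls. Others named in the text (strand partners, range ends of spans, the called CpH, 128353177 and 109526281) were chosen after their values were seen. The members and lists were chosen with earlier results of these data known. The scripts were tested on simulated data. Reference sequence and annotation were of GRCm38, and all 47903 listed cytosines matched its base.

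Deviations of samples with the same replicate number in the source names had correlations from -0.14 to 0.328 over 8 pairs (mean 0.0562). Those of samples in the same run of 9 title numbers ranged from -0.173 to 0.133 over 7 pairs. Most title numbers at P60 follow segments 1 to 9 in order. Low correlations cannot exclude that the samples of a run share a mouse. The main test treated the samples as unpaired. Replicates 1 and 4 of segment 1, the latter with a file name that marks a repeat, were the closest pair of that segment (median absolute CpG difference 1.58 points). Their counts differed by more than read counting gives, which does not show that they are separate samples. They were kept as 2, and merging them was an alternative. The alternatives were other coverage minimums, other adjustments, limma 3.58.1 on log2 odds with a pseudocount of 0.5, lane or replicate block as covariates, merged or pooled counts, and leaving out each sample. In the fits with lane or block the dispersion was held at 1 or more, chosen after seeing the data. Each file's joined first line cost 1 CpH. Of 148 deposited files, 50 were not used. Python 3.11.15, NumPy 2.4.6, SciPy 1.17.1 and pandas 2.3.3 were used.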

Additional observations from a re-analysis of the deposited data

Results flagged for a closer look

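Of 100 groups of 8 samples examined, 15 had a sample that stood far from the others by Dixon's criterion at 95%, where chance gives about 1 in 20 groups. The groups share samples and overlapping CpGs. Replicate 1 of segment 9 was the lowest ileal sample at *Mcm6* exon 13 (78.3%), *Mcm6* intron 13 (73.3%), the *Mcm6* exon 13 group (74.6%), *Lct* exon 9 (87.5%) and the *Lct* intron 2 group (49.4%, with the other samples between 59.7% and 64.1%). At the *Peg10* target it was the highest (41.3%).

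Replicate 5 of segment 1 was the highest duodenal sample at *Mcm6* exon 13 (49.1%), at the *Mcm6* exon 13 group (48.9%, with the others between 31.5% and 39.5%) and at the *Lct* exon 9 group (57.5%). Single high samples of segment 1 were also found at the *Mcm6* intron 3 group (replicate 6, 58.9%), the *Peg3* group (replicate 8, 67%), the *Zrsr1* target (replicate 3, 52.4%, with the others between 48.5% and 49.4%) and the *Airn* target (replicate 6, 66%). Single low samples of segment 9 were found at *Lct* exon 17 (replicate 8, 83.2%) and *Lct* exon 1 (replicate 4, 88.5%). The causes were not tested.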

How the results depend on the processing

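With all samples the test called 45 higher and 2 lower CpGs at the locus, 26 and 16 at the other targets, and 0 and 1 CpHs. Coverage minimums of 10 or 100 reads, and merging replicates 1 and 4 of segment 1, moved none of these counts by over 1.5 times. Bonferroni over CpGs alone called 71 higher at the locus. Benjamini-Hochberg at 0.05 called 141 and 5 at the locus, 80 and 42 at the other targets, and 24 and 24 CpHs. limma called 0 lower at the locus, 9 and 9 at the other targets and 0 lower CpHs. With lane as a covariate, 0 were lower at the locus, 9 at the other targets and 0 CpHs. limma called 48 of the 89 CpGs and the lane fit 60.

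The replicate block by source-name numbers, which the labels do not give as a pairing, called 14 and 0 at the locus, 3 and 3 at the other targets and 0 lower CpHs. The replicate block by runs of 9 title numbers, with 7 pairs, called 9 and 0 at the locus, 1 and 0 at the other targets and 0 lower CpHs. Of the 89 CpGs, 20 and 10 were called in these fits. In the sign-flip test over those 7 pairs, whose smallest p is 0.0156, 0 targets were higher and 0 lower. After adjustment a target could pass there only if several targets reached that smallest p. By the difference of segment means, or by the coefficient in limma, none of the 89 reversed in any fit. In the fits with lane or block as covariates that difference is the unadjusted one, so the adjusted direction was not examined.

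Leaving out each sample gave 38 to 45 higher and 2 to 2 lower CpGs at the locus, 22 to 26 and 12 to 16 at the other targets, 0 to 1 CpHs in each direction, 38 to 41 and 1 to 3 features, and 5 to 6 and 2 to 3 targets. The locus CpG difference was then 3.21 to 3.42 points and that of CpHs -0.00437 to 0.007. Within lanes, 74 of 75 differences of the regions that had passed kept their direction, the exception being *Impact* in lane 7 (-0.824). The locus CpH difference was -0.0417 within lane 5 and 0.0267 within lane 7. *Impact* also lost its call with replicates 1 and 4 merged (adjusted p = 0.0672), and *Lct* intron 9 with pooled reads. The causes were not tested. Depth limits CpGs near the minimum of 30 reads, and the labels do not tie samples to mice.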
